A study of Mus musculus with 6 samples.

Results

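The transcription factor SRF and the coactivators YAP (Yap1), TAZ (Wwtr1) and myocardin (Myocd) were followed by RNA-seq in primary mouse breast tumor cells. With them were read the YAP and TAZ partner Tead1, their target genes Ccn1, Ccn2, Ankrd1 and Amotl2, and Hic-5 (Tgfb1i1), a focal adhesion protein. These 10 genes were taken by name as members of the SRF and YAP programs, with earlier results of these data known, and all 10 were among the 22310 genes of the table. Metastasis-initiating cells (MICs) were compared with the other tumor cells (non-MICs), with 3 libraries of each. The cells came from mammary tumors of MMTV-PyMT mice, in which a mammary promoter drives the polyomavirus middle T oncogene, on the FVB/N background and with the genotype label WT. All cells were plated overnight in medium with 2% serum, insulin and EGF and were sorted the next day. Both populations were depleted of cells with Ter119, CD31 or CD45 and were CD24+, and they differed in the gate on CD90, which was positive for MICs and negative for non-MICs. The study's methods place the tumor-bearing mice in adulthood and count repeats as independent experiments or tumors. Neither they nor the labels give the age behind a library or say whether its cells came from 1 or several animals, so that p-values measure the spread between these libraries, which may in part be technical.

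SRF binds a DNA element called the CArG box and works with either of a pair of partner classes. The myocardin family (myocardin, Mrtfa and Mrtfb) is held back by monomeric actin and drives genes of contraction and the cytoskeleton, and the ternary complex factors (Elk1, Elk3 and Elk4) answer growth factor signals and drive immediate early genes. YAP and TAZ have no DNA-binding domain of their own and act through the TEAD factors, and Hippo kinases keep them out of the nucleus by phosphorylation, so that the level of their mRNA is not a measure of their activity. Serum, EGF and attachment to a stiff surface, which both populations had in culture, are known to engage both programs. In the mammary gland, the contractile myoepithelium is the cell layer with the highest use of SRF target genes.

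Each value below is a read count that the authors scaled to a common library total, close to 35000000, and between 31467281 and 51759769 reads stood behind a library. Thy1, the gene of CD90, was at 1509, 301.4 and 755.3 in the MIC libraries and at 16.93, 21.13 and 12.62 in the non-MIC ones, so that it separated the populations as their labels do. The replicate numbers, which both populations share, were taken as pairs, which the labels do not state. After the group means were removed, the MIC and non-MIC library of a number correlated over all genes, at 0.573, 0.668 and 0.746. Results were therefore computed without a term for the replicate number and with one, called the block below. Replicate 1 stood apart in contractile genes in both populations: Acta2 was at 230574 and 48582 in its MIC and non-MIC libraries and between 723.7 and 9839 in the other 4.

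Of the 10 members, 9 passed no test between MICs and non-MICs, and 1, Tgfb1i1, was higher in MICs once the pairs were taken into account. limma without the block called none of the 10 at an adjusted p under 0.05, and the share called among all genes was 0.0%. At an unadjusted p under 0.05 it had none of the 10 and 322 of all genes. With the block, limma called Tgfb1i1 higher and no member lower, against 0.121% of all genes higher and 0.00896% lower. edgeR on the recovered reads with the block gave the same single member, against 1.04% of all genes higher and 0.372% lower. Tgfb1i1 and Ccn2 were higher in MICs in each of the 3 pairs, which 12.5% of all genes were, and Amotl2 was lower in each, which 18.8% of all genes were. The median log2 fold change of the members was 0.01, leaving out Myocd for its low reads (0.03 with it), and that of all genes was -0.045. The values of the populations overlapped for every member. Of all 22310 genes, 600 were higher and 793 lower in MICs without overlap.

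**Figure D1:**
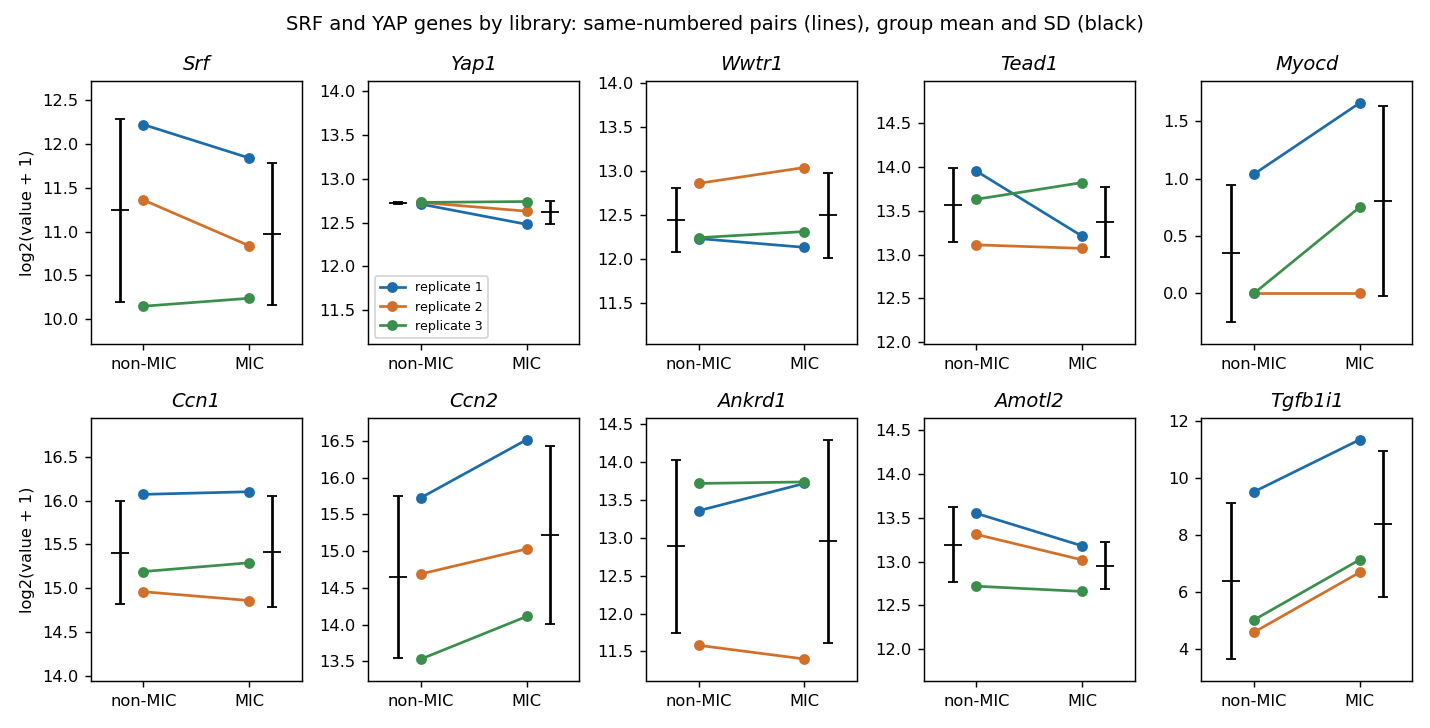
Log2 (scaled count plus 1) of each member, 1 panel per gene, with a point per library and a line joining the non-MIC and MIC library of the same replicate number. Black bars give the mean and SD of the 3 libraries of a population, and the y axes differ. The lines of Tgfb1i1 and Ccn2 rise in all 3 pairs and those of Amotl2 fall, and the Myocd panel shows libraries with at most 2 reads.

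Tgfb1i1 encodes Hic-5, a focal adhesion protein abundant in smooth muscle that can enter the nucleus and act as a coactivator. Whether it acted as a coactivator in these cells was not tested. The gene lies on GRCm38 chr7:128246812-128255699 on the plus strand. Its value was 2573, 102.3 and 138.6 in replicates 1, 2 and 3 of the MICs and 729.2, 23.24 and 31.56 in the matching non-MIC libraries. The non-MIC library of replicate 1 was thus above the MIC libraries of replicates 2 and 3, and the populations overlapped, but within each pair the MIC library was higher. The ratios of MIC to non-MIC were 3.528, 4.402 and 4.392. As reads, the lowest library held 22 and the highest 2386, so that the values of replicates 2 and 3 rest on far fewer reads than those of replicate 1. In bulk RNA, more cells of a contractile type and more of this RNA per cell cannot be told apart.

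On the log2 scale Tgfb1i1 averaged 8.38 ± 2.56 (SD, n = 3) in MICs and 6.38 ± 2.72 in non-MICs, and the fold change was 2.00 in both limma fits. Without the block its standard error was 1.60 and the 95% confidence interval ran from -1.72 to 5.72, with an adjusted p of 1 (limma, Benjamini-Hochberg). With the block the standard error was 0.25, the fold change was 4.009 with an interval from 2.776 to 5.789, and the adjusted p was 0.004195 (limma, Benjamini-Hochberg). edgeR's quasi-likelihood test with the block gave 2.01 and an adjusted p of 2.235e-14, and DESeq2 with the block gave an adjusted p of 8.176e-14. The limma call with the block was lost without replicate 1 (log2 fold change 2.10, adjusted p = 0.271), without replicate 3 (1.95, adjusted p = 0.4526) and at a pseudocount of 10 (1.80, adjusted p = 0.07945). The edgeR call with the block held without each replicate in turn, with adjusted p-values between 4.126e-12 and 0.0006261 (quasi-likelihood test).

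**Figure D2:**
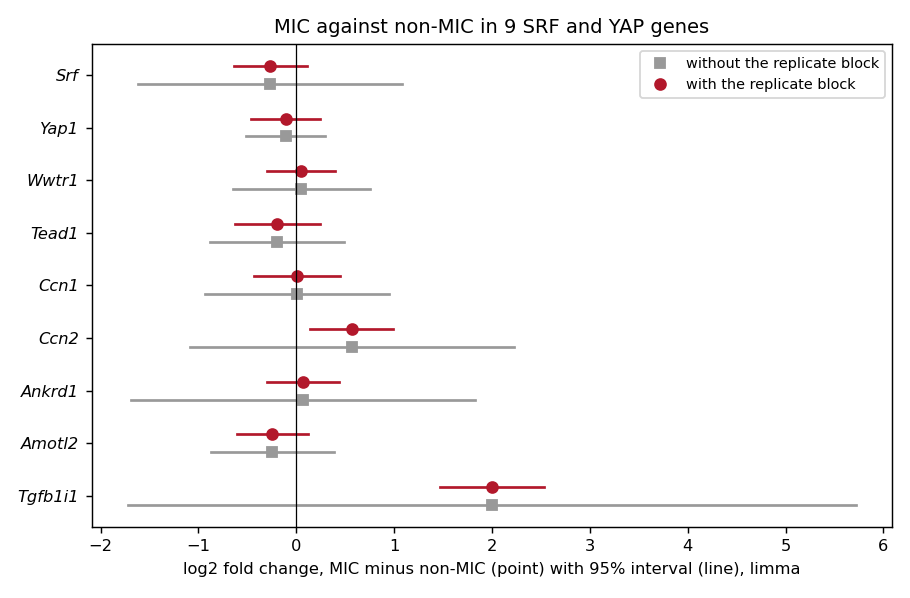
Log2 fold change (MIC minus non-MIC) of the 9 members with enough reads, as points with 95% confidence intervals as lines, from limma without the block (squares) and with it (circles). The interval with the block leaves out 0 for Tgfb1i1, at 1.47 to 2.53, and for Ccn2, at 0.14 to 0.99, and of these Tgfb1i1 alone passes the adjustment over 22310 genes.

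Ccn2, also known as CTGF, is a secreted matricellular protein whose gene is used widely as a readout of YAP and TAZ. It lies at chr10:24595442-24598683 on the plus strand of GRCm38. Ccn2 was at 94039, 33469 and 17647 in replicates 1, 2 and 3 of the MICs and at 54531, 26407 and 11824 in the non-MIC libraries. The order of the replicates was the same in both populations, and within each pair MICs were higher, by ratios of 1.724, 1.267 and 1.493. The log2 means were 15.22 ± 1.22 (SD, n = 3) and 14.65 ± 1.10, and the log2 fold change was 0.57, with an interval from -1.09 to 2.22 without the block and from 0.14 to 0.99 with it. The unadjusted p with the block was 0.01287, and the difference did not pass the adjustment over all genes in limma (adjusted p = 0.418), edgeR (0.2309) or DESeq2 (0.1172), all with the block. Without MIC replicate 1 and without the block, the log2 fold change was -0.08. The antisense gene Gm15270 overlaps Ccn2 and held between 6 and 73 reads, and the strand setting of the counting is not given in the sources used here.

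Srf, the factor itself, lies at chr17:46548329-46556175 on the minus strand of GRCm38. Its own promoter is a classic SRF target and is printed here to show the element that defines the program, beside that of Myl9, the regulatory light chain of smooth muscle myosin and a contractile SRF target described below. The sequences are the bases before the RefSeq transcript start that lie outside any exon, from GRCm38.p6 (a C57BL/6J reference, while the mice were FVB/N), 5′ to 3′ on the gene's strand, with the CArG boxes in capitals. That of Srf is chr17:46556176-46556412 on the minus strand, and that of Myl9 is chr2:156775214-156775419 on the plus strand.
Srf: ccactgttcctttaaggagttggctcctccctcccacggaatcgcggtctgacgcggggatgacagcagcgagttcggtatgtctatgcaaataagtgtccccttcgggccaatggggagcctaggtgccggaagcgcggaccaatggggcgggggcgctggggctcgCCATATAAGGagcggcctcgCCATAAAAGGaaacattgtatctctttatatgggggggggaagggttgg
Myl9: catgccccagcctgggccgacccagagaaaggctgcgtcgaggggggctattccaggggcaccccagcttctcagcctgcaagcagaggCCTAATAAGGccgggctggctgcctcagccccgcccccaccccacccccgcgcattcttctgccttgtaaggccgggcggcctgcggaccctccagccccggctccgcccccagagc
The boxes of Srf read CCATATAAGG and CCATAAAAGG and begin at -82 and -62 from the start, and that of Myl9 reads CCTAATAAGG and begins at -161.

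Srf was at 3674, 1827 and 1212 in replicates 1, 2 and 3 of the MICs and at 4774, 2626 and 1133 in the non-MIC libraries. It was lower in MICs in pairs 1 and 2, by log2 differences of -0.38 and -0.52, and differed by 0.10 in pair 3. The fitted log2 fold change of -0.27 had an interval from -1.62 to 1.08 without the block and from -0.64 to 0.11 with it (adjusted p = 0.5635, limma with the block). Myocd, the founding SRF coactivator of cardiac and smooth muscle at chr11:65176561-65269989 on the minus strand, was at the limit of detection in both populations. It had 2, 0 and 1 reads in the MIC libraries and 1, 0 and 0 in the non-MIC libraries, under the floor of 3 reads in each, and no fold change is given. The contractile SRF target Acta2 was read at 723.7 or more in every one of these libraries.

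Among the coactivators of the YAP program, Yap1 was the most even of all members. Yap1 (chr9:7931999-8004596, minus strand) was at 5717, 6338 and 6820 in replicates 1, 2 and 3 of the MICs and at 6708, 6786 and 6815 in non-MICs. The fitted difference was -0.11 on the log2 scale, with an interval from -0.46 to 0.24 with the block (adjusted p = 0.8249, limma). Wwtr1 (chr3:57455649-57575910, minus strand), which encodes TAZ, was at 4485, 8396 and 5094 in MICs and at 4814, 7437 and 4830 in non-MICs. Replicate 2 was highest in both populations, and the log2 fold change of 0.05 had an interval from -0.30 to 0.40 with the block (adjusted p = 0.9222, limma). These intervals leave out a change of 2-fold in either direction for both coactivators.

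Tead1 (chr7:112679318-112906807, plus strand), a DNA-binding partner of YAP and TAZ, was at 9467, 8579 and 14479 in MICs and at 15839, 8814 and 12665 in non-MICs. Its pair differences on the log2 scale were -0.74, -0.04 and 0.19, so that pair 1 gave most of the fitted -0.20. The interval with the block was -0.63 to 0.24 (adjusted p = 0.7326, limma), and without replicate 1 the value with the block was 0.08. The antisense gene 2310014F06Rik overlaps Tead1 and held between 12 and 44 reads.

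Ccn1, also known as CYR61, is the matricellular relative of Ccn2 and a target of both SRF and YAP. It lies at chr3:145646976-145649981 on the minus strand of GRCm38. The 250 bases before its RefSeq transcript start, chr3:145649986-145650235 on the minus strand (GRCm38.p6), are printed because they hold the TEAD core, GGAATG or its reverse complement CATTCC, which is in capitals.
Ccn1: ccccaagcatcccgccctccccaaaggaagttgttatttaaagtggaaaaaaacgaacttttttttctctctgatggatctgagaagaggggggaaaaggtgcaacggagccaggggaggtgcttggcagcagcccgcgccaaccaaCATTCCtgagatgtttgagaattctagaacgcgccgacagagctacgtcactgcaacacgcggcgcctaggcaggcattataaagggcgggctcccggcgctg
The core begins at -103 from the start.

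Ccn1 was at 70320, 29694 and 40073 in MICs and at 68609, 31954 and 37349 in non-MICs, the most even pairs of any target. Its pair differences were 0.04, -0.11 and 0.10 on the log2 scale, and the fitted value of 0.01 had an interval from -0.43 to 0.45 with the block (adjusted p = 0.9903, limma). Ccn1 and Ccn2 thus had different pair differences, and the difference between these genes was not tested. Ankrd1 (chr19:36111961-36120099, minus strand), a stress-induced muscle ankyrin protein and YAP target, was at 13532, 2711 and 13669 in MICs and at 10517, 3060 and 13464 in non-MICs. Replicate 2 was low in both populations. The log2 fold change was 0.07, with an interval from -0.30 to 0.44 with the block (adjusted p = 0.8955, limma).

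Amotl2 (chr9:102716672-102733418, plus strand) is an angiomotin that binds YAP and is itself a YAP target. It was at 9277, 8279 and 6452 in replicates 1, 2 and 3 of the MICs and at 12011, 10153 and 6769 in the non-MIC libraries. MICs were lower in each pair, by -0.37, -0.29 and -0.07 on the log2 scale. The log2 fold change of -0.25 did not pass the test (interval -0.61 to 0.12 with the block, adjusted p = 0.5863, limma).

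The replicate number held more of the sum of squares than the population did in every member with a fold change. It has more levels than the population, which gives it a larger share even without an effect. The highest replicate exceeded the lowest 27.39-fold for Tgfb1i1, 4.957-fold for Ccn2, 4.709-fold for Ankrd1 and 3.572-fold for Srf, after averaging the populations on the log2 scale. Tgfb1i1, Ccn2, Srf, Ccn1 and Amotl2 were highest in replicate 1, Ankrd1, Tead1 and Yap1 in replicate 3, and Wwtr1 in replicate 2, so that the members did not share 1 order. Of the total sum of squares, the replicate number held 99.2% for Ccn1, 98.7% for Ankrd1, 94.1% for Srf, 90.9% for Ccn2 and 82.2% for Tgfb1i1. The population held 17.7% for Tgfb1i1, 15.2% for Amotl2 and 8.2% for Ccn2. Yap1, which varied least, was split more evenly, with 38.2% by replicate number and 35.2% by population. Set per degree of freedom, the population share of Yap1 would be the larger.

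Levels of the members were set side by side only per length, as reads per exon length and library depth (RPKM, computed here from the recovered reads). The matricellular targets were highest, with a mean RPKM over 6 libraries of 655.7 for Ccn1 (420.2 to 995.1) and 396.0 for Ccn2 (118.1 to 939.1). Ankrd1 followed at 93.97 (26.83 to 135.3). Amotl2 (40.09), Wwtr1 (34.93), Srf (25.1), Tead1 (24.51) and Yap1 (20.16) formed a middle group in mean RPKM. Tgfb1i1 was at 3.068 (0.1189 to 13.16) and Myocd at 0.002884. Every neighbour in this order overlapped in range except Yap1 with Tgfb1i1 and Tgfb1i1 with Myocd. The order of neighbours within the middle group is thus not resolved. Amotl2 (29.31 to 54.57) and Wwtr1 (26.81 to 50.2) lay wholly above Yap1 (17.65 to 21.05).

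**Figure D3:**
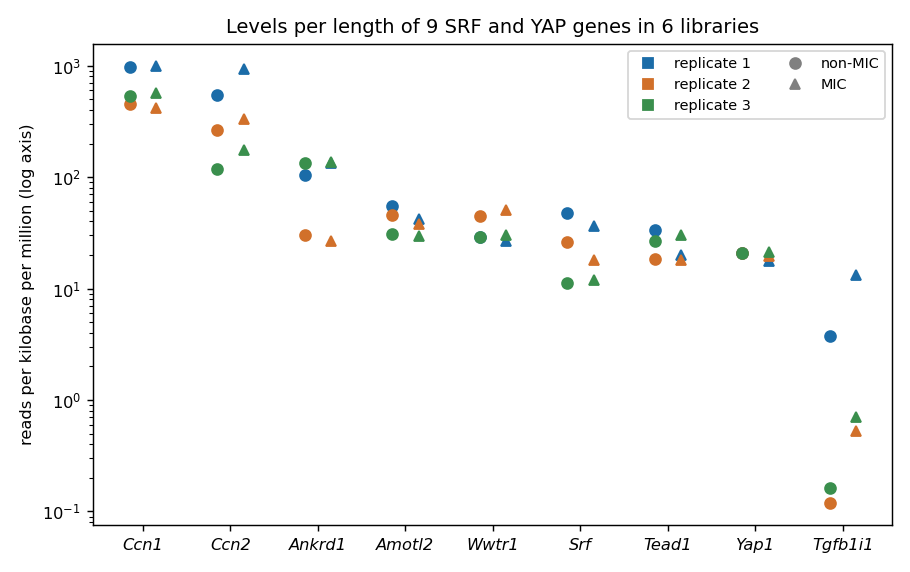
Level per exon length (RPKM, log10 axis) of the 9 members with enough reads, with a point per library, circles for non-MIC and triangles for MIC, and colors for the replicate number. Ccn1 and Ccn2 lie highest, at means of 655.7 and 396.0, and Tgfb1i1 spans the widest range, from 0.1189 to 13.16.

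The other genes of both pathways were read from 7 lists of 89 genes, of which 88 were in the table. limma without the block called none of them, and 1 had an unadjusted p under 0.05. With the block it called 7 higher in MICs and none lower, and edgeR with the block called 11 higher and none lower. Of all genes, limma with the block called 0.121% higher and edgeR with the block 1.04%. Of these 11, 8 were cytoskeletal and contractile SRF targets and 3 were YAP targets.

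Of the 21 cytoskeletal SRF targets, 6 rose in MICs by limma with the block and 8 by edgeR with the block. Higher in all 3 pairs were 12 of them and 12.5% of all genes. The median log2 fold change of the list was 0.262. Others of the list did not pass in either fit with the block, among them Smtn, which was lower in MICs in all 3 pairs (log2 fold change -0.32), Cnn2 (0.16), Tpm1 (0.22) and Tpm2 (0.62), named after their values were seen. Tagln (transgelin), an actin-bundling protein, was at 128221, 2558 and 7138 in MICs and at 18221, 418.4 and 1198 in non-MICs, a log2 fold change of 2.67. Acta2 (smooth muscle actin) was at 230574, 3765 and 9839 in MICs and at 48582, 723.7 and 1581 in non-MICs, a log2 fold change of 2.42. Both were higher in MICs in every pair, with limma adjusted p-values with the block of 1e-05 and 3.1e-05. Cnn1 (calponin), with 2.23, and Myh11 (smooth muscle myosin heavy chain), with 2.58, also rose (adjusted p = 5.3e-05 and 6.3e-05, limma with the block). Without replicate 3, limma with the block called no gene of the table, and the adjusted p of each of these 4 was 0.4526, at log2 fold changes from 2.31 to 2.71. edgeR with the block called all 4 without each replicate in turn.

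The remaining members of this list that passed a test were named after their values were seen. Myl9, whose promoter is printed above, rose by 1.90 on the log2 scale (adjusted p = 0.000313), and Actg2, the enteric smooth muscle actin, by 2.19 (adjusted p = 0.001384), both in limma with the block. Fhl1, a LIM-domain protein of muscle (2.15), and Lmod1, an actin nucleator of smooth muscle (1.25), passed in edgeR with the block (adjusted p = 1.714e-19 and 1.593e-06) and not in limma with the block (0.05446 and 0.1489). In limma with the block, Actg2 was lost without replicate 1 (adjusted p = 0.101) and, as was Myl9, without replicate 3 (0.4526). Lmod1 was lost in edgeR with the block without replicate 1 (0.91, adjusted p = 0.9996). Actb, the cytoplasmic actin and the list's most abundant gene, had a log2 fold change of -0.03. Actin genes are near-identical in sequence, and how reads that fit several of them were counted is not given in the sources used here.

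**Figure D4:**
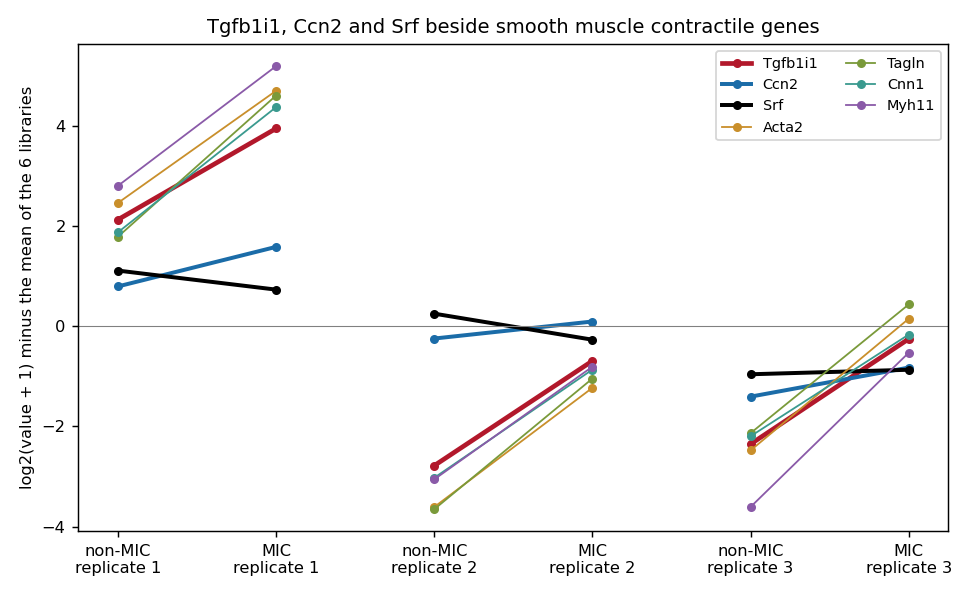
Log2 (scaled count plus 1) of Tgfb1i1, Ccn2, Srf and 4 contractile genes in each library, minus the gene's mean over the 6 libraries, with lines joining the libraries of a pair. Tgfb1i1 runs beside the contractile genes, high in replicate 1 and higher in the MIC library of every pair, while Ccn2 and Srf span a narrower range.

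**Figure D5:**
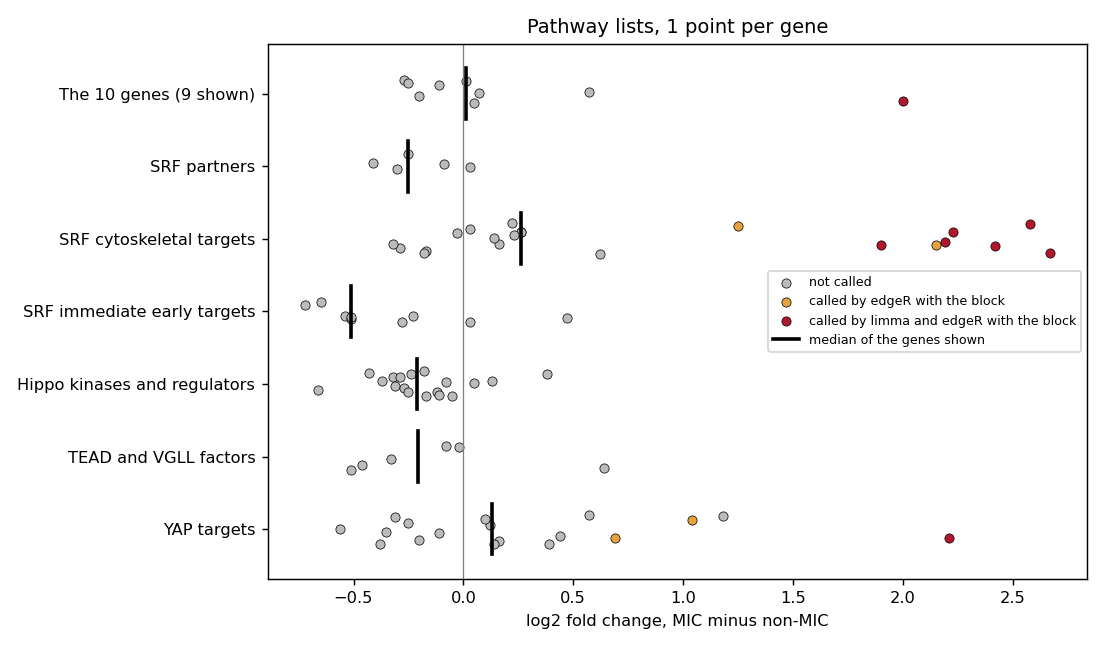
Log2 fold change (MIC minus non-MIC) of each gene by list, 1 point per gene, with the median of the genes shown as a black bar and colors for genes called with the block by edgeR alone or by limma and edgeR. Apart from Tgfb1i1, the genes called by both lie in the cytoskeletal SRF targets, 6 of 21, and the YAP targets, 1 of 18.

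The other arm of SRF, the immediate early targets, held no gene that passed. None of the 9 was called by limma or edgeR with the block, and their median log2 fold change was -0.51. Lower in MICs in all 3 pairs were 5 of them and 18.8% of all genes, and none of the 9 was higher in all 3. An unadjusted p under 0.05 in limma with the block was reached by 5 of the 9 and by 2501 of the 22310 genes. The 5 were Fos and, named after their values were seen, Fosb, Egr1, Egr3 and Nr4a1. Fos, the most abundant, had a log2 fold change of -0.54 (adjusted p = 0.418, limma with the block). Whether this list differs from the cytoskeletal one was not tested. None of the 5 SRF partner genes was called, with a median of -0.251, and the most abundant, Elk3, was at -0.09. Cofilin (Cfl1), which severs actin filaments, was at -0.13.

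On the YAP side, no gene of the 18 Hippo kinases and regulators was called by limma or edgeR with the block. Their median was -0.21, and the most abundant, the kinase Map4k4, was at -0.27. Of the 18, 5 were lower in MICs in all 3 pairs, against 18.8% of all genes, and 1 was higher, against 12.5%. None of the 6 other TEAD and VGLL genes in the table was called, with a median of -0.204, and Tead2, the most abundant, was at -0.46 (adjusted p = 0.4229, limma with the block). Of the 6, 3 were lower in MICs in all 3 pairs. Vgll3, named after its values were seen, was higher in all 3 (log2 fold change 0.64, adjusted p = 0.3058, limma with the block). In that fit 3 of the 6 and 2501 of the 22310 genes had an unadjusted p under 0.05.

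Of the 18 YAP targets outside the members, 1 rose in limma with the block and 3 in edgeR with the block, against 0.121% and 1.04% of all genes. The list's median was 0.129. Higher in MICs in all 3 pairs were 7 of the 18, against 12.5% of all genes, and 3 were lower, against 18.8%. Lats2 and Ptpn14 are also among the Hippo regulators above. Igfbp3, a secreted binding protein of insulin-like growth factors, was at 914.4, 55.61 and 480.1 in MICs and at 203.2, 4.226 and 237.1 in non-MICs, a log2 fold change of 2.21 (adjusted p = 0.04619, limma with the block), and its lowest library held 4 reads. That limma call was lost without replicate 1 (adjusted p = 0.3783), without replicate 3 (0.4526) and at a pseudocount of 10 (0.2963), all with the block. F3, the tissue factor that starts coagulation, was at 0.69 and Ccdc80, a matrix protein, at 1.04. Both passed in edgeR (adjusted p = 0.04886 and 0.02556) and not in limma (0.2149 and 0.3723), each with the block. In edgeR with the block, F3 was lost without replicates 1 and 2 (adjusted p = 0.9996 and 0.0611) and Ccdc80 without replicates 1 and 3 (0.1499 and 0.2606). Myof (myoferlin), with the highest mean scaled count of the list, was at -0.38. Per length, Axl was higher, at a mean RPKM of 109.7 against 53.8 for Myof. The log2 fold change of Axl was 0.39 and did not pass in either fit with the block.

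Genes with a profile most like that of 3 members were listed by Pearson's r of log2 values over the 6 libraries, among 11173 genes with a mean value of at least 100, as a description. Libraries of the same replicate number correlate, so that a shared replicate order alone gives high values. Tgfb1i1 was most like Acta1 (0.9968), Cnn1 (0.9959) and Myh11 (0.9942), all genes of muscle contraction. Ccn2 was most like Cald1 (0.9993), the actin-binding caldesmon, and then Msrb3 (0.9941) and Lims2 (0.9934). Srf was most like Trir (0.9957), Nfkbib (0.995) and Tgfb1 (0.9928). Over the same libraries r between Tgfb1i1 and Srf was 0.657, and between Tgfb1i1 and Ccn2 it was 0.856.

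Promoter windows of 300 bases, from 250 before to 50 after the start, were found in RefSeq for 6 of the members (Srf, Yap1, Wwtr1, Ccn1, Ankrd1 and Amotl2). The CArG box was searched in each as exact letters only: CC, then 6 letters that are each A or T, then GG. A box with a mismatch would not be found. The TEAD core GGAATG was searched on both strands. The CArG box lay in that of Srf alone among these 6, and in 1.63% of 32851 windows of all genes. The TEAD core lay in those of the other 5, and in 14.7% of all windows. The list counts below are per gene, over any of its windows, while 1.63% and 14.7% are shares of single windows. Among the immediate early targets, 1 of 6 genes with a window held a CArG box. Among the cytoskeletal SRF targets, 7 of 17 genes with a window did. Of these 7, Myl9 and Fhl1 rose in edgeR with the block. Fhl2, Cnn2, Actg1, Vcl and Filip1l passed in neither fit with the block. Acta2, Cnn1 and Lmod1 had windows without an exact match, which does not show that they lack a CArG box. Tagln, Myh11 and Actg2 had no window. Among the YAP targets none of 12 held a CArG box and 4 held the TEAD core. A match describes letters in a window and is not a measured binding site.

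Some markers of other cell types rose in MICs, as Tgfb1i1 and 8 cytoskeletal genes did, and other markers of the same lists did not. Of 5 myoepithelial markers, Krt5 and Trp63 rose in edgeR with the block, and Krt5 alone also in limma with the block (adjusted p = 0.01215). The sum of the list was 19616 to 153799 in MICs and 23179 to 87926 in non-MICs. In pair 2 this sum was lower in the MIC library, at 19616 against 23179, and so were Krt14, Krt17 and Oxtr, with log2 differences of -0.90, -0.12 and -0.67. Krt5, the basal keratin, was at 12705, 402.6 and 2554 in MICs and at 1161, 97.2 and 1110 in non-MICs. Of 8 pericyte and vascular smooth muscle markers, Cspg4 and Mcam rose in edgeR with the block, and the sum was 4103 to 13929 in MICs and 2860 to 7148 in non-MICs, most of it Mcam. Notch3 and Kcnj8 of this list had log2 fold changes of -0.68 and -0.34 and did not pass. Rgs5 and Kcnj8, which define pericytes, were read 3 times or fewer in each library, and Des 9 times or fewer. Of 6 fibroblast markers, Col1a2 and Dcn rose in edgeR with the block, with a sum of 566.1 to 1780 in MICs and 523.2 to 661.5 in non-MICs, and Dpt was at 0 in 3 libraries. In pair 2 the fibroblast sum was lower in the MIC library, at 566.1 against 633.9, and Col1a1 differed by -0.19, -0.62 and 1.65 on the log2 scale in pairs 1, 2 and 3.

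The tumor cells kept their epithelial label: 5 luminal markers, among them Krt8 and Epcam, summed to 211658 to 589774 in MICs and 277193 to 697460 in non-MICs, with none called by limma or edgeR with the block. Endothelial markers summed to at most 50.68 in any library. Of the blood markers, Ptprc, which encodes CD45, had at most 14 reads in a library and was at 0 in replicate 1 of both populations. Lyz2, a gene of myeloid cells, was at 31.27, 1635 and 142.0 in MICs and at 46.57, 833.6 and 136.8 in non-MICs. The part of these cell types in the values of Tgfb1i1 and the contractile genes was not tested.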

How the data were processed

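Tumor cells sorted into MICs and non-MICs were sequenced by the authors from stranded mRNA libraries, with 3 libraries of each. The deposited signal is a read count per gene that the authors scaled to the library total. The sources differ on the tools: the paper names Bowtie2 and samtools, and the submitters' processing notes name STAR and HTSeq with the builds mm10 and GRCm38. Versions and the strand setting are not given in the sources used here.

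Values were whole multiples of what 1 read is worth, and dividing by it gave whole reads, within 0.01, for 99.99% to 100.0% of values. Depth sets counting error only, and reads carried no molecular identifiers. All 22310 genes were tested on log2(value + 1) by limma 3.58.1 (R 4.3.3), with a variance trend and Benjamini-Hochberg adjustment at 0.05, so that fold changes of low genes are understated. The design without a block was primary, since the study ranked genes by an unpaired measure. The replicate numbers were taken as pairs, which the labels do not state, because departures correlated within every number (0.573, 0.668 and 0.746). Different numbers averaged -0.33, a value that removing the group means of 3 libraries largely fixes, so that it is no separate evidence. Blocked values stand beside the others. edgeR 4.0.16 and DESeq2 1.42.0 on recovered reads were added after the data were seen. The fits were tested on simulated data. In these, libraries of the same number shared their means, apart from genes changed on purpose. The simulation thus cannot show whether the numbers are pairs in the real data.

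The members and lists were chosen with earlier results of these data known, and 1 of the 7 pathway lists enters the joint counts and is not reported on its own here. Named genes were the 10 members, the markers, and the 3 genes most like Srf, Ccn2 and Tgfb1i1. From each list came up to 4 called genes and the gene with the highest mean scaled count. Symbols and positions came from GENCODE vM21 on GRCm38, which matched 22161 identifiers, and promoters from RefSeq (GRCm38.p6). Tables were made with pandas 2.3.3 and numpy 2.4.6 in Python 3.11.15.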

Additional observations from a re-analysis of the deposited data

How the results depend on the processing

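No gene passed without the replicate block in limma or edgeR, and DESeq2 without it called 1 gene. The pairing changed the counts: limma with the block called 29 genes, 1 member and 7 listed pathway genes; with TMM factors added 32, 1 and 7; at a pseudocount of 10, 9 genes, 0 members and 6 listed genes. With the block, edgeR called 315, 1 and 11, and DESeq2 133, 1 and 9, with 7353 adjusted p-values not given. Leaving out 1 library at a time gave 0 calls in limma without the block. In the fits with the block, both libraries of a replicate number were left out together. With the block, limma called 11, 59 and 0 genes without replicates 1, 2 and 3, with 0, 1 and 0 members and 5, 8 and 0 listed genes. edgeR with the block called 33, 489 and 783 genes, 1 member each time, and 8, 14 and 13 listed genes. The cause of these shifts was not tested. The block changed no other member's call.

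Directions turned for 10 named genes, among them Lmod1 (1.25) and Ccn2 (0.57). Ccn1 was at -0.07 under quantile normalization, and Actb at 0.01 under it, 0.02 in edgeR and 0.05 in DESeq2, both without the block. With the block and a replicate left out, limma and then edgeR gave, without replicate 1, Tead1 at 0.08 and 0.06, Ccn1 at -0.002132 and -0.02 and Ankrd1 at -0.08 and -0.09. Without replicate 2 they gave Actb at 0.14 and 0.20 and Cfl1 at 0.007193 and 0.06, and limma gave Wwtr1 at -0.01. Without replicate 3 Ccn1 was at -0.04 and -0.02. Leaving out single libraries without the block gave -0.82 to 0.22 for Srf, -0.22 to 0.26 for Wwtr1, -0.33 to 0.34 for Ccn1, -0.08 to 1.12 for Ccn2, -0.58 to 0.85 for Ankrd1, -0.32 to 0.05 for Elk3, -0.44 to 0.33 for Actb, -0.21 to 0.02 for Cfl1 and -0.28 to 2.46 for Lmod1. Of 675 recomputed gene values, 36 turned, 89 newly passed the threshold and 550 did neither. The depth limits Myocd, which had at most 2 reads in a library.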
